A study of Mus musculus with 12 samples.

Results

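The genes described here are 40 genes of the cell cycle and of DNA replication, chosen by name, among 27976 genes with a probe on the arrays. All 40 had a probe, 1 of them (Cdk1) under an older symbol, and where a gene had several probes its brightest measured one was used. They comprise 15 genes that act at the start of or during S phase, 22 that act in mitosis, and Ccnd1, Cdkn1a and Stmn1, which were put in neither set. A gene entered the test if every array of some group, 3 of 3, showed its sample signal well above background. This held for 34 of the 40 and for 14912 genes in all.

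The series measured RNA from livers of male C57BL6/J mice on 12 two-colour Agilent arrays, with 3 arrays in each of 4 groups. Cyp1b1 null mice on the low-fat diet (10% fat) were set against wild-type mice on it. Cyp1b1 null mice on the high-fat diet (60% fat) were set against wild-type mice on that diet. High fat was also set against low fat within each genotype. Every mouse was weaned onto its diet at 3 weeks and killed at 14 weeks, and Cyp1b1 is a monooxygenase of the cytochrome P450 family. The labels call the source liver hepatocytes and describe each sample as 3 samples pooled, without saying whether replicates were separate pools. The p-values therefore reflect variation among these arrays, which may be technical, and the number of arrays limits the precision. Each sample, in Cy3, shared its array with 1 common reference in Cy5, a pool of livers from wild-type mice on low fat. Values below are log2 ratios of sample over that pool, so 0 means equal to the pool and a negative value below it. No dyes were swapped, and a difference from the pool and a difference between the dyes therefore cannot be told apart. A dye effect that is equal on all arrays cancels between groups.

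Dividing cells switch these genes on in waves. Late in G1, cyclin D and cyclin E complexes release E2F transcription factors, which turn on the genes for the replication machinery and for making deoxynucleotides. Genes of mitosis peak later, and their promoters often carry a cell cycle genes homology region (CHR) together with CCAAT boxes. Hepatocytes of an adult liver rarely divide, and the organ also holds resident macrophages, stellate cells, endothelial cells and bile duct cells.

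The promoters of 30 of the 40 genes were in the RefSeq table used (GRCm38.p6), which allowed the sequence elements of the S-phase and mitotic sets to be compared. Over the 250 bases before the start that lies farthest 5′, both strands were searched for E2F motifs (TTTCCCGC, TTTCGCGC, TTTGCCGC or TTTGGCGC), for the CHR (TTTGAA) and for CCAAT. Overlapping matches were all kept. An E2F motif was present in 4 of 12 S-phase promoters (33.3%), in 1 of 17 mitotic promoters (5.88%) and in 520 of 27018 promoters in all (1.92%). The CHR was present in 7 of 17 mitotic promoters (41.2%), in 1 of 12 S-phase promoters (8.33%) and in 16.3% of all promoters. All 7 of these mitotic promoters also held CCAAT, a pair that 5.76% of all promoters held, and CCAAT itself was in 88.2% of mitotic, 66.7% of S-phase and 34.5% of all promoters. These matches are a description of letters within the window.
The 120 bases before the start are given for 4 S-phase genes and 2 mitotic genes whose levels are described below. Capitals mark the E2F, CHR and CCAAT matches on either strand, and each sequence reads 5′ to 3′ on the strand of its gene.
Mcm6, chr1:128359706-128359825, minus strand: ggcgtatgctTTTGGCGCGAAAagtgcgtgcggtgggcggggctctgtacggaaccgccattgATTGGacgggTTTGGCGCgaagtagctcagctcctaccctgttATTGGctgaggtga
Pcna, chr2:132253181-132253300, minus strand: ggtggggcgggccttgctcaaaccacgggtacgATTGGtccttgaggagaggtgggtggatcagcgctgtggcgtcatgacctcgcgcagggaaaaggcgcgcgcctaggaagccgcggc
Rrm2, chr12:24708134-24708253, plus strand: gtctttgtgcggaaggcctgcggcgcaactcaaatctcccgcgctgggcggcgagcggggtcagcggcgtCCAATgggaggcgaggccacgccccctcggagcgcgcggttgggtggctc
Tk1, chr11:117826015-117826134, minus strand: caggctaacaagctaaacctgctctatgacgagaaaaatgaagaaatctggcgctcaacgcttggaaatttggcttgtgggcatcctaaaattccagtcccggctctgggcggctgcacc
Cdc20, chr4:118437344-118437463, minus strand: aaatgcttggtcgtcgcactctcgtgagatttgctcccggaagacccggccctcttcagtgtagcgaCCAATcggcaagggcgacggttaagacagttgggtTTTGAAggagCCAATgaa
Ube2c, chr2:164769809-164769928, plus strand: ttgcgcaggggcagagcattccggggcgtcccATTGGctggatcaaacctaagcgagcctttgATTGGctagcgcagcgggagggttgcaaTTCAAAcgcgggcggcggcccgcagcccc
Mcm6 shows 3 E2F matches, a pair of them overlapping, and Cdc20 and Ube2c each show a TTTGAA element close to the start with CCAAT boxes nearby. No element is marked in the Tk1 window.

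The targeted gene was not lower on arrays labelled null, and so it could not serve as a check of the genotype labels. The brighter of 2 Cyp1b1 probes had 1.68, 1.58 and 1.59 on arrays labelled null low-fat, against 0.16, -0.85 and -1.11 on wild-type low-fat arrays. On high fat it had 0.65, 1.68 and 1.23 on arrays labelled null, against -0.69, -0.13 and -0.88 on wild-type arrays. It was thus higher on every array labelled null than on any labelled wild type. Its sample signal was well above background on 1 of 3 wild-type low-fat arrays and on all 3 arrays of each other group. The other probe was well above background on 2 of 12 arrays, both labelled null. The labels do not give the deleted part of Cyp1b1, so whether these probes lie in it was not tested. Null and wild type are the names the labels give throughout, and each direction between them rests on those labels.

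Across the series the cell cycle genes were below the wild-type low-fat pool in nearly every sample, wild-type low-fat samples included. Of the 34 tested genes 32 were below the pool on at least 11 of the 12 arrays, against 16.8% of all tested genes, and over all 40 genes the count was 36. Below it on all 12 arrays were 13 of the 34, against 7.12%. Below the pool by over 1, on at least 9 arrays, were 13 of the 34, against 1.15% of all tested genes, and also 13 on at least 9 of the 11 arrays other than wild-type low-fat array 1, against 1.11%. The median over the 40 genes was -0.86, -0.98 and -0.85 on null low-fat arrays 1 to 3, against 0.08, -1.12 and -0.80 on wild-type low-fat arrays 1 to 3. On high fat it was -0.33, -1.13 and -1.01 on the null arrays and -1.11, -0.60 and -1.03 on the wild-type arrays. The median was negative on 11 of the 12 arrays, in all 4 groups, and slightly above 0 on wild-type low-fat array 1. The 2 tested genes outside that count were Tk1, thymidine kinase of the salvage pathway, below the pool on 5 of 12 arrays, and Ccnb1, below it on 10. The count was lower in some settings that were planned for the comparisons. With median centring in place of loess 19 of 40 genes were below on at least 11 arrays (4.22% of all tested genes). With signals as scanned it was 22 of 40 (4.08%).

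**Figure D1:**
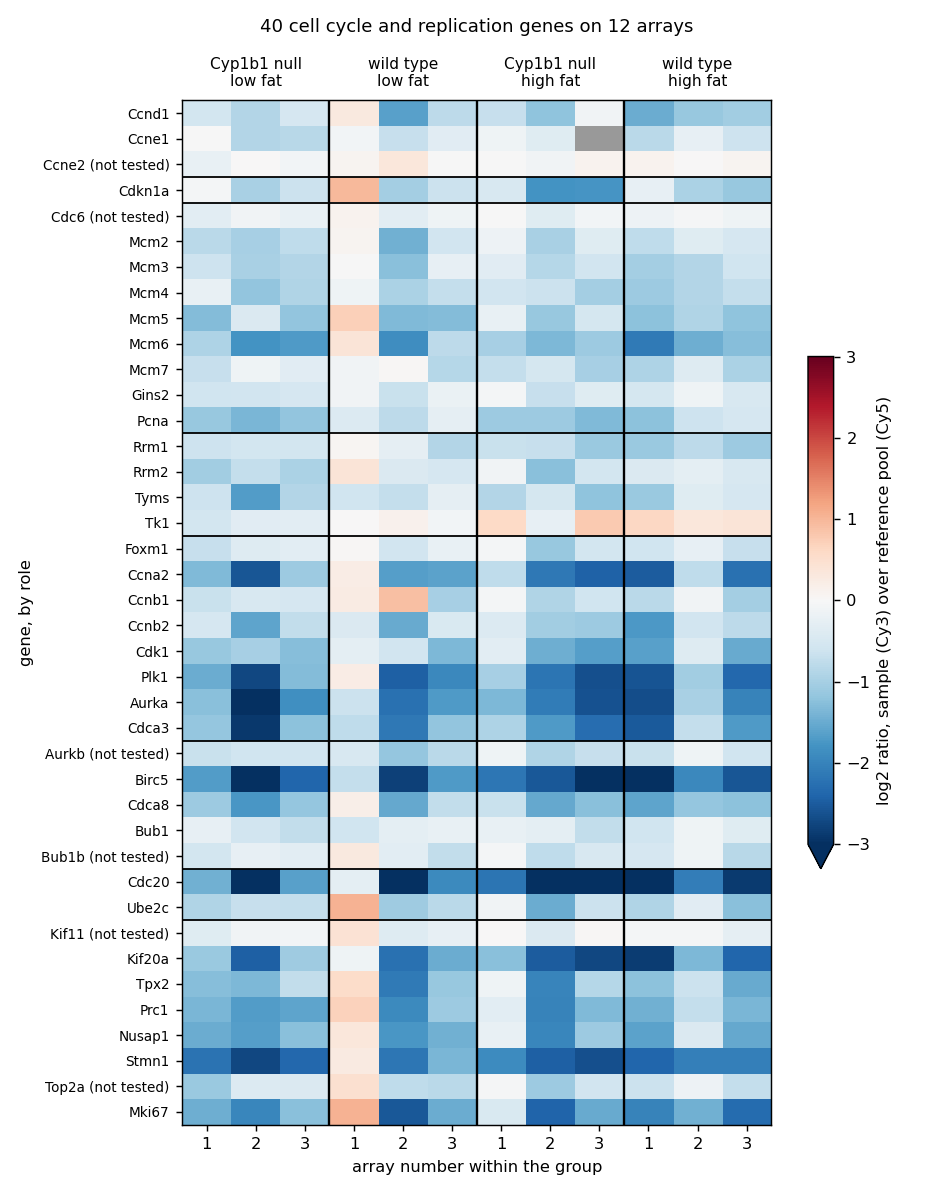
Log2 ratio of sample over the reference pool for each of the 40 genes (rows, grouped by role) on each of the 12 arrays (columns, 3 per group). Blue is below the pool, red above it, colours end at 3 and -3, and grey marks 1 value left out as a non-uniform spot; wild-type low-fat array 1 is the column where most rows are white or red.

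Wild-type low-fat array 1 stood apart from its group for most of these genes. Of the 34 tested genes 24 had their highest value of all 12 arrays on it, against 17.4% of all tested genes, and over all 40 genes the count was 28. Only 16 of the 40 genes were below the pool on it, against 36 to 40 on the other 11 arrays. Mki67, a marker of cycling cells that coats mitotic chromosomes, had 1.04 on this array and -2.55 and -1.49 on arrays 2 and 3 of its group. Ube2c, which attaches ubiquitin together with the anaphase-promoting complex (APC/C), had 1.05, against -1.08 and -0.80 on those arrays. Prc1, which bundles microtubules at the spindle midzone, had 0.69, against -1.91 and -1.09. On each of these genes array 1 was above every other array of the series.
The excess was larger in the sample channel than in the channel of the pool. Both channels were rebuilt from the normalised ratio and mean intensity, so their excesses differ by exactly the excess in the ratio. The larger value in the sample channel thus restates the higher ratio and is not separate evidence. Array 1 exceeded the mean of wild-type low-fat arrays 2 and 3 by a median of 1.08 on the log2 scale in the sample channel, with 39 of 40 genes above 0. In the reference channel that median was 0.13, with 28 of 40 above 0. Cdc20, which activates the APC/C in mitosis, differed by 3.01 in the sample channel and by 0.60 in the reference channel.

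**Figure D2:**
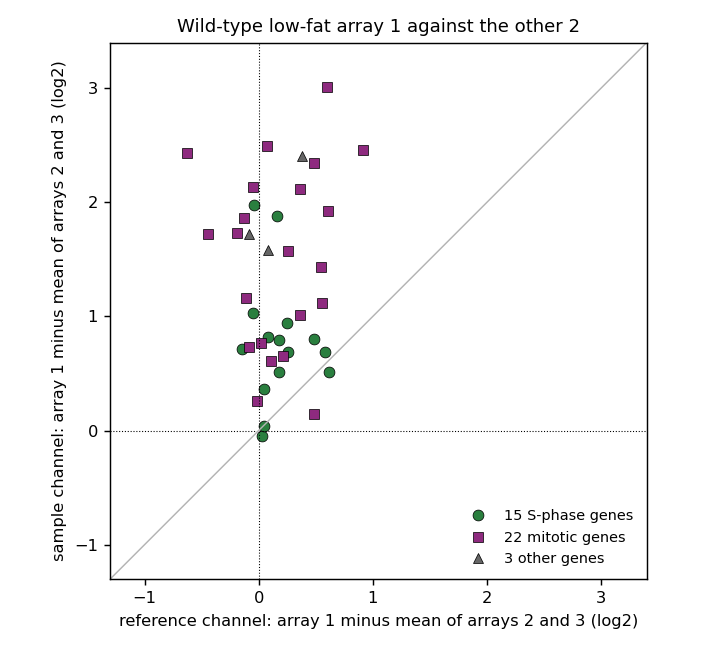
For each of the 40 genes, log2 intensity on wild-type low-fat array 1 minus the mean of wild-type low-fat arrays 2 and 3, in the sample channel (vertical) and the reference channel (horizontal). Points gather near 0 on the horizontal axis (median 0.13) and above 0 on the vertical axis (median 1.08). The grey line marks equal differences, and the height of a point above it is the gene's excess in the log2 ratio.

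Markers of other liver cells were also high on that array. Of 16 Kupffer cell and macrophage markers 14 were highest of the wild-type low-fat arrays on array 1, and their summed sample intensity was 69800 there, against 15500 and 32200 on the other 2. The sums lay between 24400 and 28600 on null low-fat, 26300 and 32500 on null high-fat and 15200 and 28500 on wild-type high-fat arrays. Of 12 stellate cell and fibroblast markers 10 were highest on array 1, with a sum of 36500, against 11900 and 10200. Their sums were 9900 to 13300 on null low-fat, 9630 to 14100 on null high-fat and 10600 to 13500 on wild-type high-fat arrays. All 11 endothelial markers were highest of their group on array 1, with a sum of 14200, against 8430 and 9230, but null low-fat arrays ranged from 10100 to 14900. The 9 bile duct markers summed to 16800, against 7070 and 3330, with 5 of them highest on array 1, and lay between 3060 and 4700 in the other groups. The 12 lymphocyte markers summed to 1840, against 1620 and 1990, with 3 highest of their group on array 1, and Cd79a was below background on every array. Markers of cells other than hepatocytes were thus measurable although the label reads hepatocytes. Hepatocyte markers were bright on all arrays and summed to 293000 on array 1, against 293000 and 236000, and to between 283000 and 371000 in the other groups. The part of these cell types in the cell cycle values was not tested. In bulk RNA, more cycling cells and more of these transcripts per cell cannot be told apart.

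A pair of arrays, null high-fat array 1 and wild-type high-fat array 2, had ratios drawn towards 0 for all genes. The interquartile range of the log2 ratio over all genes was 0.24 and 0.26 on them, against 0.45 to 0.70 on the other 10 arrays. With no background correction the median of the 40 genes on them was -1.10 and -1.51, beside -0.33 and -0.60 with it, and so their smaller deviations from the pool depended on that step. There were 3 scans. Of the wild-type low-fat group scan 1 held only array 1, and scan 3 had no null array but 1 wild-type array per diet. The arrays lay on 4 slides, and slide 2 held null low-fat arrays 2 and 3 and no other. A fit with slide as a block therefore takes the null low-fat level from array 1 of that group alone. Per array, 18375 to 23439 of 41174 probes had a sample signal well above background, and none of the 40 genes was saturated. The pool signal followed the scan, with 17286 to 19758 probes well above background in scan 1, 25128 to 25998 in scan 2 and 22341 to 23729 in scan 3. Its raw median was 125 to 168 in scan 1, 570 to 800 in scan 2 and 296 to 431 in scan 3. The part of this in the ratios to the pool was not tested.

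S-phase and mitotic genes were set against each other within each array, which removes a shift that both share. Mitotic genes lay farther below the pool than S-phase genes on 11 of the 12 arrays. Medians of the 15 S-phase genes were -0.62, -0.73 and -0.83 on null low-fat arrays, against 0.01, -0.68 and -0.33 on wild-type low-fat arrays. Medians of the 22 mitotic genes were -1.13, -1.61 and -1.07 on null low-fat arrays, against 0.20, -1.59 and -1.11 on wild-type low-fat arrays. On wild-type low-fat array 1 the order was turned round, with S-phase minus mitotic at -0.19, while on the other 11 arrays it lay between 0.09 and 0.93.
On high fat the S-phase medians were -0.22, -0.68 and -0.56 in livers labelled null, against -0.94, -0.35 and -0.51 in wild-type livers. The mitotic medians were -0.32, -1.61 and -1.18 in livers labelled null, against -1.59, -0.61 and -1.44 in wild-type livers. The gap between the sets differed between groups by less than its SD of 0.44 between arrays of a group. The difference was 0.05 for null minus wild type on low fat, -0.07 on high fat, 0.11 for diet in wild type and 0.0011 for diet in null livers. With Agilent processed signals it was 0.86 and 0.76 in the diet comparisons, above that SD. Without wild-type low-fat array 1 it was -0.30 for genotype on low fat and -0.23 for diet in wild type. These are descriptions without a test. Tested mitotic genes were dimmer, with a median log2 sample intensity of 7.91 beside 9.05 for tested S-phase genes, and the part of brightness in the gap was not tested. Levels cannot be compared between probes.

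**Figure D3:**
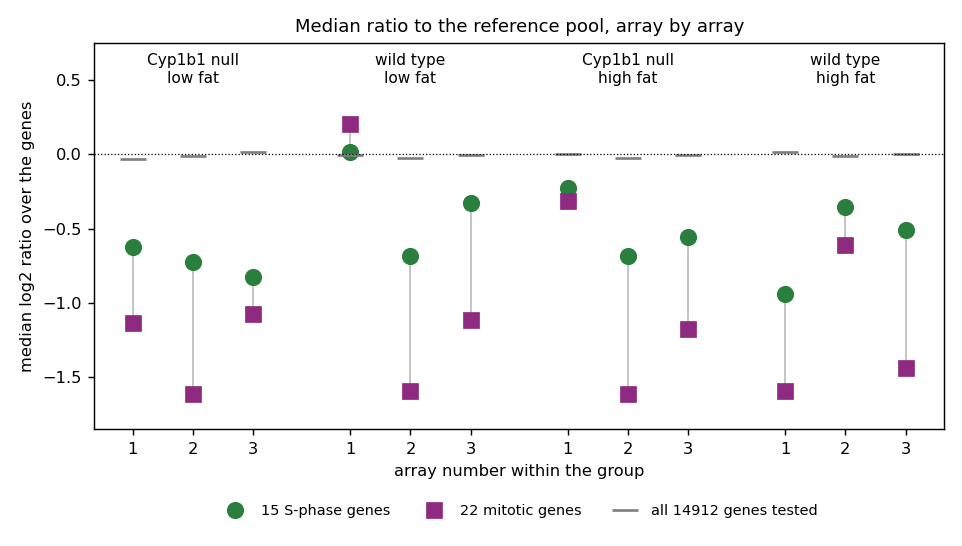
Median log2 ratio to the reference pool of the 15 S-phase genes (circles), the 22 mitotic genes (squares) and all 14912 tested genes (grey dashes) on each array, in 4 groups of 3. Squares lie below circles on 11 arrays, and on wild-type low-fat array 1 the square is at 0.20 and the circle at 0.01.

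None of the 34 tested genes passed a threshold of 0.05 on limma's Benjamini-Hochberg adjusted p, taken over all 14912 genes, in any of the 5 comparisons made. Of all genes, 3 passed for null against wild type on low fat (0.0201%) and 2 on high fat (0.0134%). For diet, 1 gene passed in wild-type livers (0.00671%) and 1 in null livers (0.00671%). No gene passed for the interaction of genotype and diet (0%). At an unadjusted p under 0.05, limma gave 3 of the 34 lower and 0 higher for genotype on low fat, where 3.81% of all genes were lower and 3.41% higher. It gave 0 of 34 for genotype on high fat, where 1.33% were lower and 1.23% higher. For diet in wild type it gave 2 lower, with a background of 2.23%, and 0 higher, with one of 1.8%. For diet in null livers it gave 1 higher, with a background of 0.865%, and 0 lower, with one of 1.03%. For the interaction it gave none, where 0.463% of all genes were higher and 0.436% lower.

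On the low-fat diet, 38 of the 40 genes had a lower mean in livers labelled null than in those labelled wild type, with a median difference of -0.34. Among the tested genes 33 of 34 were below 0, against 50.9% of all genes. That direction rested on wild-type low-fat array 1. Without it the median difference was -0.02, and 21 of the 40 genes were below 0. Of the tested genes 20 of 34 were then below 0, against 49.1% of all genes. None of the 34 had a limma adjusted p under 0.05 in that setting (0.0872% of all genes did), and 2 were lower at an unadjusted p under 0.05 (5.56% of all genes were). For the 22 mitotic genes the median difference was -0.43 with that array and 0.09 without it. For the 15 S-phase genes it was -0.24 with it and -0.06 without it. Slide as a block, where null low-fat array 1 alone stands for its group, gave a median of -0.13 over the 40 genes (23 below 0). With all arrays, median centring gave -0.18 (27 below).
Within scan 1, which of wild-type low-fat arrays holds array 1 alone, the median over the 40 genes was -0.93, and within scan 2, with 1 array of each group, it was 0.29.

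**Figure D4:**
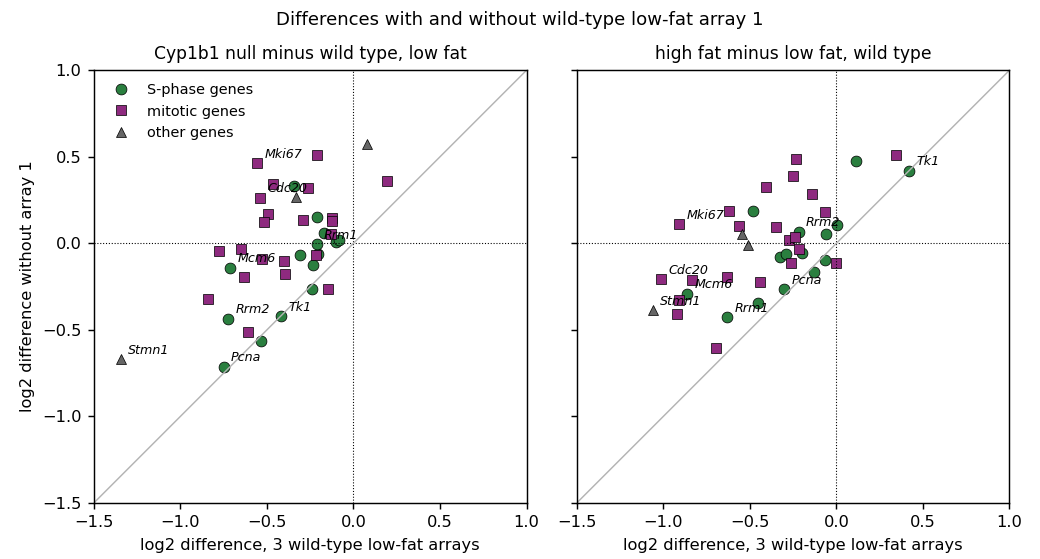
Log2 difference of each of the 40 genes for Cyp1b1 null minus wild type on low fat (left) and for high minus low fat in wild type (right), computed from all arrays (horizontal) and without wild-type low-fat array 1 (vertical). Most points lie left of 0 (38 and 36 of 40) but on both sides of 0 vertically (21 of 40 below 0 in each panel), and the grey line marks equal values.

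Pcna, the sliding clamp that holds DNA polymerases on the template, had the smallest p of the 40 genes for genotype on low fat. It was -1.14, -1.38 and -1.18 on null low-fat arrays, against -0.41, -0.78 and -0.26 on wild-type low-fat arrays. The groups did not overlap, and array 1 was not the highest wild-type array. Livers labelled null averaged -1.23 ± 0.12 and wild-type livers -0.48 ± 0.27 (SD, n = 3 each), a difference of -0.75 with a standard error of 0.21 and a 95% interval of -1.21 to -0.29. Limma's unadjusted p was 0.00406 and its adjusted p 0.378. Without array 1 the difference was -0.71, with a limma adjusted p of 0.345. Pcna, the brightest tested S-phase gene, was spotted 10 times per array, and the SD of its log2 ratio between spots had a median of 0.28 over the arrays. Its difference was -0.87 within scan 1 and -0.36 within scan 2, and a fit that blocked on scan gave -0.60 (limma adjusted p of 0.235). It was -0.20 with median centring in place of loess.

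Ribonucleotide reductase, which makes deoxynucleotides, has the large subunit Rrm1 and the small subunit Rrm2. Rrm2 was -1.05, -0.73 and -0.94 on null low-fat arrays, against 0.39, -0.43 and -0.50 on wild-type low-fat arrays. Every null array was below every wild-type array. The means were -0.90 ± 0.16 in null and -0.18 ± 0.50 in wild-type livers (SD, n = 3 each). The difference of -0.72 had a standard error of 0.29 and a limma adjusted p of 0.625. Without array 1 it was -0.44, with a limma adjusted p of 0.634. It was -1.23 within scan 1 and -0.61 within scan 2, and a fit that blocked on scan gave -0.90 (limma adjusted p of 0.189).
Rrm1 was -0.62, -0.54 and -0.55 on null low-fat arrays, against 0.05, -0.26 and -0.87 on wild-type low-fat arrays. These groups overlapped, and the difference of -0.21 had a limma adjusted p of 0.911.

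Tk1 was -0.56, -0.33 and -0.31 on null low-fat arrays, against 0.01, 0.12 and -0.08 on wild-type low-fat arrays. The groups did not overlap, and the difference of -0.42 (standard error 0.23) had a limma adjusted p of 0.773. It was -0.42 without array 1 as well, since that array was in the middle of its group for Tk1. Tyms, thymidylate synthase, makes thymidine monophosphate anew where Tk1 recovers it from thymidine. Its difference on low fat was -0.53 with a limma adjusted p of 0.773, and the groups overlapped. Of its 3 measured probes 2 gave -0.53 and -0.51 and the dimmest gave 0.32, so the probes of Tyms did not agree. In all, 6 of the 40 genes had several measured probes, and Tyms was the only one of them whose probes differed in sign in this comparison. Between genotypes on high fat the probes of Cdca3, Mki67 and Tyms differed in sign.

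Stmn1, stathmin, a protein that destabilises microtubules, was -2.23, -2.72 and -2.36 on null low-fat arrays, against 0.26, -2.17 and -1.37 on wild-type low-fat arrays. The groups did not overlap, though wild-type array 2 lay close to the highest null array. Livers labelled null averaged -2.44 ± 0.26 and wild-type livers -1.09 ± 1.24 (SD, n = 3 each). The difference of -1.34 (standard error 0.47, limma adjusted p of 0.556) was -0.67 without array 1, with a limma adjusted p of 0.466. It was -2.80 within scan 1 and -0.06 within scan 2, and a fit that blocked on scan gave -1.45 (limma adjusted p of 0.287). A dimmer measured probe of Stmn1 gave -1.37, -1.78 and -1.33 on null low-fat arrays, against -0.23, -1.61 and -0.28 on wild-type low-fat arrays. On that probe the groups overlapped and the difference was -0.79. By the brightest probe, Pcna, Rrm2, Tk1 and Stmn1 were the 4 of 34 tested genes whose null arrays all lay below the wild-type arrays on low fat, where 4.55% of all genes did so. No tested gene had the null arrays all above, where 4.81% of all genes did.

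The remaining genes overlapped between livers labelled null and wild type on low fat. Ccnd1, which drives G1, differed by 0.08, the only tested gene above 0, Ccne1, the cyclin E that activates Cdk2, by -0.21, and Cdkn1a, which blocks such kinases, by -0.33. Among the subunits of the replicative helicase, Mcm2 to Mcm7, differences ran from -0.71 for Mcm6 to -0.08 for Mcm7. Mcm6 was -0.94, -1.79 and -1.70 on null arrays, against 0.38, -1.87 and -0.79 on wild-type arrays, and the wild-type arrays spanned the null ones. Gins2, part of the GINS complex that joins the helicase, differed by -0.24. Kinases and cyclins that start mitosis (Cdk1, Ccna2, Ccnb1, Ccnb2, Plk1, Aurka), with the factor Foxm1 and with Cdca3, differed by -0.13 to -0.65. Birc5 and Cdca8, members of the chromosomal passenger complex with Aurkb, differed by -0.84 and -0.63, and the checkpoint kinase Bub1 by -0.15. The spindle and midzone genes Kif20a, Tpx2, Prc1 and Nusap1 differed by -0.21 to -0.78, and Ube2c by -0.49. None of these genes had a limma adjusted p below 0.793.

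Cdc20 showed the widest range of the 40 genes. It was -1.43, -4.27 and -1.62 on null low-fat arrays, against -0.29, -3.51 and -1.90 on wild-type low-fat arrays. Both groups held an array below -3, and the SD was 1.58 in null and 1.61 in wild-type livers. Mki67 was -1.46, -1.97 and -1.25 on null low-fat arrays, against 1.04, -2.55 and -1.49 on wild-type low-fat arrays. Wild type held both the highest and the lowest of these 6 values, and the difference of -0.56 had a 95% interval of -2.22 to 1.10. Without array 1 the difference was 0.46. Cdca8, the borealin subunit and the brightest tested mitotic gene, was -1.09, -1.74 and -1.15 in livers labelled null, against 0.18, -1.54 and -0.74 in wild-type livers, and also overlapped.

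**Figure D5:**
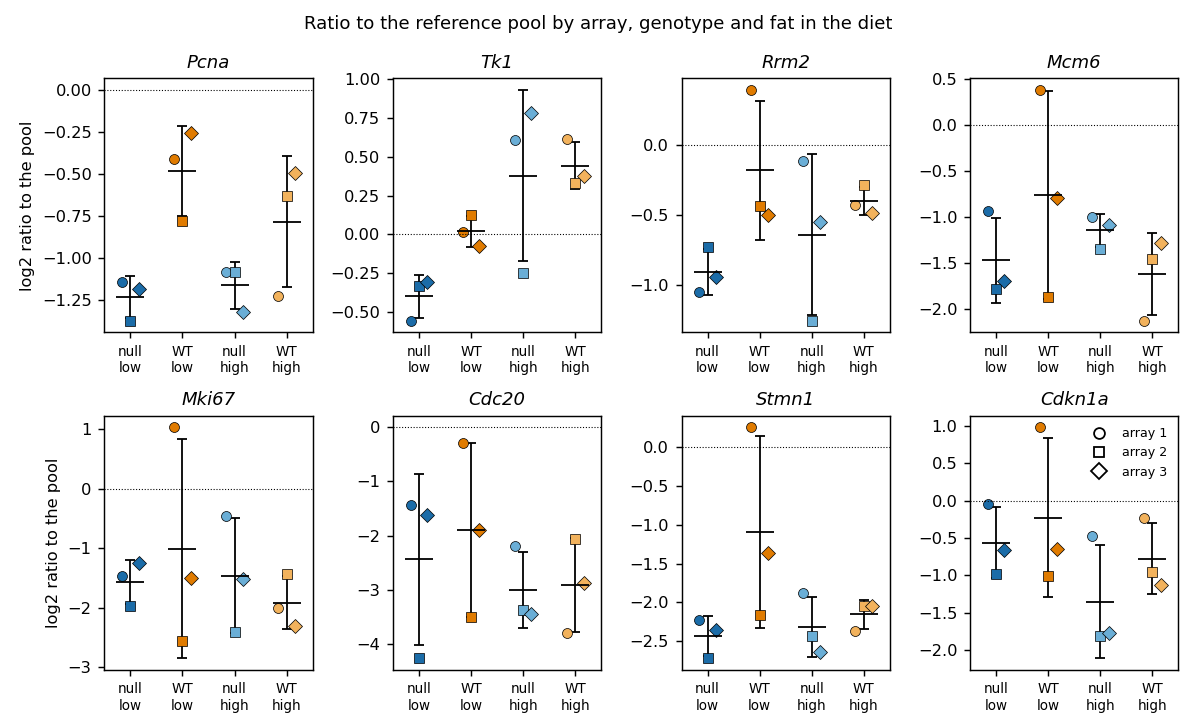
Log2 ratio to the reference pool of 8 genes in each group (left to right null low fat, wild type low fat, null high fat, wild type high fat). Points are arrays, with array 1 a circle, array 2 a square and array 3 a diamond, and dashes and bars are the mean and SD of 3 arrays; the vertical scale differs between panels. The wild-type low-fat circle lies highest for Rrm2, Mcm6, Mki67, Cdc20, Stmn1 and Cdkn1a but not for Pcna or Tk1.

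On the high-fat diet, the 40 genes were spread to both sides of 0 between livers labelled null and wild type. The median difference was 0.02, with 16 of the 40 below 0, and it was 0.01 for S-phase and 0.03 for mitotic genes. With scan as a block it was -0.13 (27 of 40 below 0), with slide as a block -0.14 (29 below), and with signals as scanned 0.22 (6 below). Of the 34 tested, 12 were below 0, against 49.3% of all genes, and 22 above 0, against 50.7%. No tested gene had arrays that separated by genotype, where 3.73% of all genes were higher and 4.04% lower. Within scan 1 the median was 0.51, and within scan 2 it was -0.62. Of the arrays with narrow ratios, null array 1 was in scan 1 and wild-type array 2 in scan 2. The median was -0.19 without null array 1 and 0.25 without wild-type array 2.
Pcna was -1.08, -1.09 and -1.32 in livers labelled null, against -1.23, -0.63 and -0.50 in wild-type livers. The groups overlapped through wild-type array 1, and the difference was -0.38, with a standard error of 0.21 and a limma adjusted p of 1. It was 0.02 within scan 1 and -0.45 within scan 2. Median centring gave -0.12. Ccnd1, the cyclin that starts G1 progression, was -0.69, -1.20 and -0.12 in livers labelled null, against -1.49, -1.13 and -1.04 in wild-type livers. Its difference of 0.55 had a limma adjusted p of 1, and was 1.09 within scan 1 and -0.07 within scan 2. Cdkn1a, the p21 inhibitor of cyclin-dependent kinases, was -0.48, -1.80 and -1.77 in livers labelled null, against -0.24, -0.96 and -1.13 in wild-type livers. Its difference of -0.57 also had a limma adjusted p of 1, and was -0.88 within scan 1 and -0.84 within scan 2. With Agilent processed signals it was -1.35, in the sample channel alone -0.92 and with slide as a block -0.95. Null array 1 was the highest null array for Cdkn1a and wild-type array 1 the highest wild-type array. These 3 genes had the smallest unadjusted p in this comparison.

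In wild-type livers, 36 of the 40 genes were lower on high fat than on low fat, with a median difference of -0.31, -0.22 for S-phase and -0.38 for mitotic genes. Of the 34 tested genes 32 were below 0, against 48.8% of all genes, and 2 above 0, against 51.2%. This comparison shares the wild-type low-fat arrays with the genotype comparison on low fat, and its direction rested on array 1 as well. Without that array the median was -0.02, with 21 of 40 genes below 0. Of the tested genes 20 of 34 were then below 0, against 47.5% of all genes. In that setting 0 of the 34 had a limma adjusted p under 0.05 (0.00671% of all genes did), and 0 were lower at an unadjusted p under 0.05 (2.47% of all genes were). Within scans 1, 2 and 3, each with 1 wild-type array per diet, the median was -1.19, 0.41 and -0.26.
Rrm1 was -1.12, -0.78 and -1.08 on high fat, against 0.05, -0.26 and -0.87 on low fat. The groups overlapped between -0.78 and -0.87. The difference of -0.63 had a standard error of 0.23, an unadjusted p of 0.0171 and a limma adjusted p of 1, and it was -0.43 without array 1. Within scans 1, 2 and 3 it was -1.17, -0.52 and -0.21, below 0 in each.
Stmn1 was -2.37, -2.05 and -2.04 on high fat, against 0.26, -2.17 and -1.37 on low fat. Its difference of -1.06 (limma adjusted p of 1) was -0.39 without array 1 and -2.63, 0.12 and -0.68 within scans 1, 2 and 3. The dimmer probe of Stmn1 gave a difference of -0.14 here. Mcm6 was -2.13, -1.45 and -1.29 on high fat, against 0.38, -1.87 and -0.79 on low fat. Its difference of -0.86 (limma adjusted p of 1) was -0.29 without array 1 and -2.52, 0.42 and -0.49 within those scans. For both genes low-fat array 2 lay among the high-fat values.

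Ccnb1, the cyclin that activates Cdk1 at mitotic entry, was dim. In wild-type livers its sample signal exceeded background clearly on 0 of 3 high-fat and 3 of 3 low-fat arrays. It entered the test through the wild-type low-fat group alone, where its mean was highest. Its differences from that group, and its place in the counts of 34, depend on that entry. Its log2 sample intensities were 6.44, 6.90 and 6.40 on high fat, against 7.36, 7.65 and 6.55 on low fat, and so overlapped. The mean log2 intensities were 6.58 on high fat and 7.19 on low fat. The log2 ratios were -0.80, -0.11 and -1.03 on high fat, against 0.24, 0.90 and -0.99 on low fat, and the difference of -0.70 had a limma adjusted p of 1. In null livers Ccnb1 was well above background on 0 of 3 high-fat and 1 of 3 low-fat arrays.
Tk1 was among the 4 genes of 40 above 0 in this comparison. It was 0.62, 0.33 and 0.38 on high fat, against 0.01, 0.12 and -0.08 on low fat in wild-type livers. These groups did not overlap, which made Tk1 the 1 tested gene of 34 with all high-fat arrays above the low-fat ones, where 3.52% of all genes were. No tested gene had them all below, where 3.69% of all genes did. The difference of 0.42 had a limma adjusted p of 1 and was 0.42 without array 1.

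Wild-type low-fat array 1 does not enter the means of null livers. It does enter the spread shared by all groups, and so the standard errors and p-values. In null livers the median difference between the diets was 0.08, with 12 of 40 genes lower on high fat. It was 0.19 for S-phase and 0.05 for mitotic genes. The direction depended on the processing: the median was -0.12 (27 of 40 below 0) with no background correction and -0.21 (28 below) with Agilent processed signals. With slide as a block, where null low-fat array 1 alone stands for its group, the median was -0.23 (27 below). As-scanned signals gave -0.05 (23 below), and median centring gave -0.025 (22 below). Of the 34 tested genes 23 were above 0, against 54.6% of all genes, and 11 below 0, against 45.4%. Tk1 was 0.61, -0.25 and 0.78 on high fat, against -0.56, -0.33 and -0.31 on low fat. The groups did not overlap, although high-fat array 2 lay close to the nearest low-fat array. The difference of 0.78 had a standard error of 0.23, a 95% interval of 0.26 to 1.29, an unadjusted p of 0.00683 and a limma adjusted p of 1. It was 1.01 within scan 1 and 0.31 within scan 2. Tk1 was thus the gene with separated arrays in both diet comparisons, as 1 of 34 higher in null livers against 2.33% of all genes.
Rrm1 was the 1 gene of 34 with all high-fat arrays below the low-fat ones in livers labelled null, against 2.53% of all genes. It was -0.67, -0.69 and -1.12 on high fat, against -0.62, -0.54 and -0.55 on low fat, a difference of -0.26 with a limma adjusted p of 1.
Cdkn1a was -0.48, -1.80 and -1.77 on high fat, against -0.05, -0.98 and -0.65 on low fat in null livers. The groups overlapped through high-fat array 1, and the difference of -0.79 had a limma adjusted p of 1. It was -0.30 within scan 1 and -1.75 within scan 2. It was -1.39 with no background correction as well as with signals as scanned and -1.95 with Agilent processed signals, with limma adjusted p of 0.98 to 1. With slide as a block, where null low-fat array 1 alone stands for its group, the difference was -2.02. Its 10 spots per array had a median SD of 0.18, well under the spread between arrays. Mcm7 was -0.72, -0.52 and -0.997 on high fat, against -0.70, -0.14 and -0.33 on low fat. Its difference of -0.35 (limma adjusted p of 1) was 0.032 in the sample channel alone, 0.19 with slide as a block, -0.62 within scan 1 and 0.18 within scan 2.

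The interaction, the genotype difference on high fat minus that on low fat, had a median of 0.38 over the 40 genes with 2 of them below 0. Among those tested, 33 of 34 were above 0, against 52.1% of all genes, and 1 below 0, against 47.9%. Wild-type low-fat array 1 enters this contrast too, and without it the median was 0.09 with 18 of 40 genes below 0. With slide as a block, where null low-fat array 1 alone stands for its group, it was 0.06, with 16 of 40 below 0. Mcm6 had 1.19 and Stmn1 1.18, each with a limma adjusted p of 1, and without that array they had 0.62 and 0.50.

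A further 6 genes of the 40 were not tested, since no group had all 3 arrays well above background. Of the 12 arrays, Ccne2, cyclin E2, was above background on 4, Cdc6, which loads the helicase, on 1, the passenger kinase Aurkb on 3, and the checkpoint kinase Bub1b on 5. The spindle motor Kif11 was above on 3 and Top2a, the topoisomerase that untangles chromosomes, on 3. In the pool, Aurkb and Top2a were above background on all 12 arrays and Bub1b on 11. For these genes the sample values are near background and their ratios, which ranged from -1.15 to 0.49, say little of their level.

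Other genes of the same processes were not called either. None of 29 tested further replication genes, 26 further mitotic genes, 28 cell cycle regulators or 19 p53 targets passed the limma threshold in any of the 5 comparisons. Of the 26 mitotic ones 21 were below the pool on at least 11 arrays, as were 15 of the 29 replication ones, 10 of the 28 regulators and 8 of the 19 p53 targets, beside 16.8% of all tested genes. On low fat, null minus wild-type medians were -0.28 for mitotic genes (23 of 26 below 0), -0.15 for replication genes (22 of 29), -0.10 for regulators (19 of 28) and -0.33 for p53 targets (16 of 19), beside 50.9% of all genes below 0. Without wild-type low-fat array 1 they were -0.01 (15 of 26), -0.14 (19 of 29), -0.05 (18 of 28) and -0.21 (15 of 19), beside 49.1% of all genes.
Cdt1, which loads the helicase with Cdc6, averaged -0.99 on high fat and -0.09 on low fat in wild-type livers, without overlap. Its difference of -0.90 had a standard error of 0.27 and a limma adjusted p of 0.924. Cdkn1c, the p57 inhibitor, averaged -0.34 in null and 0.32 in wild-type livers on low fat, without overlap. That difference of -0.66 had a limma adjusted p of 0.442. Cdca2, which binds protein phosphatase 1 on mitotic chromosomes, averaged 0.67 in null and 0.18 in wild-type livers on low fat, and its difference of 0.49 had a limma adjusted p of 0.565. Trp53inp1, a p53 target, averaged -1.33 in null and -0.23 in wild-type livers on high fat, and its difference of -1.10 had a limma adjusted p of 1.
Cdh1 was on the list of regulators by an alias of Fzr1, but the symbol is that of E-cadherin, an adhesion protein. It averaged -0.0015 in null and -1.35 in wild-type livers on high fat, without overlap, and the difference of 1.35 had a limma adjusted p of 0.516.

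In the authors' deposited table the median over the 40 genes was -0.77 for null against wild type on low fat, with 39 of 40 below 0. For high against low fat in wild type the authors' deposited table had a median of -1.04, with 37 of 40 below 0. For null against wild type on high fat the authors' deposited table had 0.03, with 17 of 40 below 0. Pcna was -0.78, Rrm2 -1.57 and Stmn1 -1.36 for null against wild type on low fat in the authors' deposited table. That table equals the group differences of the scanner software's own log ratios, to which wild-type low-fat array 1 contributes as 1 of 3.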

How the data were processed

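RNA of 12 liver samples was measured on two-colour Agilent arrays in 4 groups of 3. The deposited intensities, mean spot brightness and median local background of both dyes, came, per the file headers, from Agilent Feature Extraction with spot analysis 9.1.3.1. That software's deposited log10 ratios set Cy5 over Cy3. In the authors' deposited table each spot has log2 differences between groups, and the submitters' processing notes name limma; on all 43379 spots these equalled the log10 ratios' group differences, turned to log2 of Cy3 over Cy5, within 1e-06.

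Here limma 3.58.1 in R 4.3.3 corrected background by normexp (offset 50), normalised ratios within arrays by loess and left arrays unscaled to each other; 120 non-uniform spots were dropped. A gene took its brightest measured probe. Summed intensities and channel values are of single channels after loess and Aquantile. Limma fitted 1 mean per group over 12 arrays, with Benjamini-Hochberg adjustment over 14912 genes at 0.05. For Ccne1 the fit used 2 null high-fat arrays. Lists of genes are described by counts and medians, without a test.

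The 40 genes, the other lists and the rules were chosen with earlier results of these data known. Named with every array were Mki67, Pcna, Ccnb1, Ccnd1, Cdkn1a, the brightest S-phase and mitotic gene and the 3 smallest p of each pairwise comparison; from other lists, the genes with the smallest p, of which examples are printed. Ube2c, Prc1, Cdc20, Rrm1 on low fat and on high fat in null livers, Tk1 on low fat and in wild type, and Tyms were added after their values were seen, and Cyp1b1 as the targeted gene. The fit was tested on simulated data. Promoters are from RefSeq on GRCm38.p6. Markers of 1 further cell type are not reported here.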

Additional observations from a re-analysis of the deposited data

How the results depend on the processing

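The count of called genes among the 34 stayed 0 in every setting run, 27 for each pairwise comparison and 26 for the interaction: other background corrections, normalisations, channels, probes, filters, variance models, blocks, and each array left out. With the Agilent processed signals the median over the 40 genes was -0.77 for null minus wild type on low fat and -1.04 for high minus low fat in wild type, and S-phase minus mitotic was 0.86 for diet in wild type and 0.76 for diet in null livers. In the sample channel alone, S-phase minus mitotic was 0.40 for genotype on high fat. Within scan 1 the medians were -0.93 for genotype on low fat, 0.51 for genotype on high fat, -1.19 for diet in wild type and 1.46 for the interaction, and S-phase minus mitotic was 0.76 for genotype on low fat and 0.85 for diet in wild type. Within scan 2 the medians were 0.29, -0.62, 0.41 and -0.78 for the same 4 contrasts and -0.34 for diet in null livers, and S-phase minus mitotic was -0.40, 0.68 and -0.65 for genotype on low fat, genotype on high fat and diet in wild type. Mcm7 for diet in null livers turned to 0.032 in the sample channel and 0.19 with slide as a block. As-scanned signals gave 22 and median centring 19 genes below the pool on at least 11 arrays. The causes were not tested. With 1 array left out, the median ranged from -0.66 to -0.02 for genotype on low fat, -0.19 to 0.25 for genotype on high fat, -0.58 to -0.02 for diet in wild type, -0.12 to 0.19 for diet in null livers and 0.09 to 0.66 for the interaction; S-phase minus mitotic ranged from -0.30 to 0.25, -0.26 to 0.16, -0.23 to 0.32 and -0.19 to 0.23 for the 4 pairwise contrasts in that order. The replicate block cannot move a difference of group means here, since each number occurs once per group, so the medians are -0.34, 0.02, -0.31 and 0.08 with it by construction; it changes only the errors, and no gene was called. Over all groups the numbers did not pair the arrays, since 6 of 18 same-numbered pairs correlated above 0.1. Wild-type low-fat and high-fat arrays of the same number did share a slide and a scan. They correlated at 0.33, 0.34 and 0.46. Null high-fat arrays 1 and 2 also shared a slide and a scan with the wild-type arrays of their number. These null arrays correlated at 0.39 and 0.54 with the wild-type arrays on low fat, and at -0.02 and 0.57 with those on high fat. The main fit left the shared slides and scans out. Signal near background limits 6 genes and Ccnb1.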
